A study of Mus musculus with 15 samples.

Results

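Glycolysis and hypoxia-response genes were followed as 1 set of 34 genes through RNA-seq of mouse embryonic stem cells (ESC) that had lost the DNA-binding protein Hmga1. Members were chosen by symbol, as glycolytic enzymes, sugar and lactate transporters and textbook targets of hypoxia-inducible factor (HIF), and all 34 were found in both count tables, out of 21662 genes listed there. The list was chosen with earlier results of these data known, so counts set against all genes describe it and are not independent support. The 15 samples fall into 2 experiments that were normalised apart. The first held WT (3 samples, a, b and c), the Hmga1 KO (a and b), and the KO line with tagged Hmga1 cDNA (Hmga1 add-back, a and b) or tagged Hmga2 cDNA (Hmga2 add-back, a and b). The second held WT_2 and KO_2, with 3 samples each. By the labels both KO and KO_2 are Hmga1 KO, and by the study's methods KO carries a frameshift made with Cas9 while KO_2 lacks the coding part, cut out by adding guides in both UTRs to the guide of the KO. The ESC were of mixed 129Sv-C57Bl/6 background and were grown in serum with LIF, on feeder cells or gelatine. The parental line expressed the BirA-V5 ligase from the CAG promoter, and the add-back cDNAs were driven by the same promoter from 1 defined locus. Every genotype was 1 line, so an effect of the genotype and a property of the line cannot be told apart. By the methods RNA came from 2 or more independent cultures taken on different days, and whether any samples share a culture is not given. In the first experiment the letters mark batches prepared on the same day and run on the same flow cell.

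Glycolysis splits glucose into pyruvate in the cytosol, and pyruvate is then turned into lactate or enters the mitochondria. Pluripotent cells are known for a high rate of glycolysis. HIF is a pair of proteins whose alpha subunit is hydroxylated by the Egln enzymes when oxygen is present and is then degraded. When it persists, HIF binds the short hypoxia response element and raises transcription of glycolytic enzymes, glucose transporters, mitophagy receptors and of Egln genes themselves.

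The core of the hypoxia response element reads ACGTG or GCGTG. It was looked for on both strands in the 250 bases before each transcription start listed by RefSeq (GRCm38.p6), where 30 of the 34 genes had at least 1 start. Bnip3l, Ndrg1, Eno1b and Slc2a3 were not matched. A core was present in 36 of 46 promoters of these genes (78.3%), against 12679 of 32851 promoters of all genes (38.6%). ACGTG alone was in 45.7% against 16.6%, and GCGTG alone in 54.3% against 28.2%. The promoters of all genes were not matched to the set for base content or expression. Overlapping promoters of 1 gene can share a site, as for Aldoa, and are then counted more than once. Members were partly picked as HIF targets, so a higher share may be partly built in. In all, 28 of the 30 genes had a core in some promoter, and Gpi1 and Tpi1 had none in this window. The sites below are those of 6 of the 9 genes that rose in KO_2, of Pfkp, whose response differed between the losses, and of Slc16a3, which had the next lowest p after Bnip3 and Pfkp in KO. Of the other 3 that rose, Tpi1 had no core, Slc2a3 was not matched and Pfkm had cores in 3 of 4 promoters and is not shown, so this choice leans to genes with a core. Sites are written 5′ to 3′ along the gene's strand with the core of that site, or its reverse complement (CACGT), in capitals. The lines of Bnip3 and P4ha2 hold further cores, which were left in lower case. A match describes the letters only and is not a bound site.
Bnip3 (chr7:138909597-138909625, minus strand, 107 bases before the start): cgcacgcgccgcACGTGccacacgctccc
Slc16a3 (chr11:120949028-120949056, plus strand, 27 bases before the start): caggcagcggtgACGTGcgcgggggacgt
Egln1 (chr8:124949306-124949334, minus strand, 68 bases before the start): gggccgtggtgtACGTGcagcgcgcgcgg
Egln3 (chr12:54204087-54204115, minus strand, 229 bases before the start): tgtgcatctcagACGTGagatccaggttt
P4ha1 (chr10:59323268-59323295, plus strand, 16 bases before the start): tgtgacagagcgCACGTagcgagggctg
P4ha2 (chr11:54100834-54100862, plus strand, 78 bases before the start): tgtgcatcgcatACGTGcagcgcgtggcg
Ddit4 (chr10:59951941-59951969, minus strand, 187 bases before the start): agaacgttgcgaACGTGcgcccggtgcct
Pfkp (chr13:6648823-6648851, minus strand, 68 bases before the start): ggccccgcccttGCGTGagtcccgcccat
All of these sites except that of Pfkp hold ACGTG on one strand or the other. A single site is shown per gene, and ACGTG was shown where a promoter had it. The promoters of Bnip3, Egln1, P4ha1, P4ha2 and Ddit4 also hold GCGTG. That of Pfkp holds GCGTG and no ACGTG.

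Counts on genes summed to between 13465399 and 34952136 per sample in the first experiment and between 14832310 and 21708492 in the second. Levels are given as CPM, the count of a gene relative to the TMM-scaled library size of its sample, and differences as log2 fold changes with their standard errors (SE). WT_2 b stood apart, with a scaling factor of 0.752 against 0.986 to 1.12 in the other samples of its experiment, and 8.78% of its counts on 10 genes against 4.67% to 5.38%. The counts, the median and the values that it moved by over 1.5 times are therefore also given without it. As a check of the labels, Hmga1 had 464, 276 and 221 CPM in WT and 217 and 96.1 CPM in KO, so reads of the gene remained in that line. The study describes a shorter Hmga1 transcript and no detectable Hmga1 protein in the KO, and protein comparable to WT in the Hmga1 add-back. Hmga1 had 310.4 to 357 CPM in WT_2 and 10.9 to 12.3 CPM in KO_2. The Hmga1 add-back had 184 and 123 CPM, within the range of KO, so this gene did not check that label, and Hmga2 had 249 and 222 CPM in the Hmga2 add-back against 13.8 and 18.9 CPM in KO. All 9 pluripotency markers were detected in every sample. They summed to 4844 to 5404 CPM in WT and 5624 to 5784 CPM in KO, and to 4463 to 7487 CPM in WT_2 and 4146 to 4247 CPM in KO_2. The 9 markers of feeder fibroblasts, mostly Thy1 and Acta2, summed to 5.59 to 9.84 CPM in WT, 8.75 to 9.50 CPM in KO, 4.47 to 7.27 CPM in WT_2 and 8.04 to 8.29 CPM in KO_2. Pluripotency sums were thus higher in every KO sample and lower in every KO_2 sample than in their WT, and feeder sums were higher in every KO_2 sample. Single pluripotency markers were mixed. In KO_2, 6 had negative and 3 positive log2 fold changes, from -0.93 for Zfp42 to 0.58 for Dppa5a. Zfp42 weighed most on the sum, with a mean of 1753 CPM in WT_2 and 922 CPM in KO_2. In KO, 7 were positive and 2 negative. The part of pluripotency or feeder markers in the results was not tested. Of the feeder markers, Postn, Lum and Dcn were at or near 0 in every group. In these bulk samples, fewer cells of a kind and less RNA per cell cannot be told apart.

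Per exonic length the set covered a wide range in WT. Aldoa, an aldolase, had 384 ± 24.1 RPKM (CPM per kilobase of exon, SD, n = 3). Ldha, a lactate dehydrogenase subunit, had 376 ± 73.8 RPKM (SD, n = 3) and Pgam1, phosphoglycerate mutase, 355 ± 46.1 RPKM (SD, n = 3). These 3 enzymes led the order in WT, and each pair of them differed by less than the larger of its SD. The order was not the same in WT_2. There Eno1b (277 ± 37.8 RPKM, SD, n = 3) and Eno1 (234 ± 32.9, SD, n = 3) lay above Ldha (184 ± 42.3, SD, n = 3). Several hypoxia targets lay low, with Bnip3 at 4.30 ± 2.63 RPKM (SD, n = 3) and Ddit4 at 4.06 ± 0.768 (SD, n = 3). Others did not, such as Slc2a1 at 113 ± 16.9 RPKM (SD, n = 3) and Pdk1 at 44.4 ± 3.31 (SD, n = 3). Car9, a carbonic anhydrase, and Adm, the peptide adrenomedullin, were the lowest. Car9 had 3 to 17 reads per sample and Adm 0 to 16, below the mean count of 10 asked for, and they were not tested. The other 32 genes were tested in both experiments.

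The first question was whether these genes differ between the Hmga1 KO and WT. Most had higher values in KO, and the lowest p were those of Bnip3, the phosphofructokinase Pfkp and the lactate exporter Slc16a3. Of the 32 genes tested, 26 had a positive and 6 a negative log2 fold change, and their median was 0.48, against -0.01 over all genes tested. Of these, 1 passed an adjusted p of 0.05 (edgeR's quasi-likelihood test with batch in the model, Benjamini-Hochberg over all genes), where 0.0647% of all genes did, and 0 passed the study's own limits (adjusted p of 0.01 with a change of at least 1 on the log2 scale), where 0.0216% did. At an unadjusted p under 0.05, 20 of the 32 were higher in KO, against 6.99% of all genes, and 0 were lower. Every KO sample lay above every WT sample for 19 genes (13% of all genes) and below for 2, Gapdh and Kdm3a (10.5%). Within both batches KO was higher than WT for 26 genes (30%) and lower for 3 (32.1%), and the median difference was 0.45 in batch a and 0.48 in batch b. WT c was alone in its batch, so beyond the filter and scaling it added nothing to the modelled KO effects. Those log2 fold changes and SE rest on batches a and b, and the median stayed at 0.48 without WT c.

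Bnip3 encodes a receptor of the outer mitochondrial membrane that marks mitochondria for removal (chromosome 7, 146082519 to 146101202, NCBIM37). Its CPM were 4.74, 12.9 and 5.02 in WT (a, b, c), whereas KO had 20.5 (a) and 37.9 (b). Both KO samples were above all WT samples, and in both genotypes the batch b sample was the highest. The log2 fold change was 1.82 (SE 0.21, adjusted p = 0.0329 from edgeR), and it was 2.11 within batch a and 1.56 within batch b. Of the 47-base windows of its exons, as long as the trimmed reads, 46.9% occur elsewhere in the genome, so that part of its reads was placed at random among copies. Without the batch term the adjusted p was 0.264, and leaving out KO a, KO b, WT a or an Hmga2 add-back sample moved it to between 0.0669 and 0.551.

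Of the enzymes of upper glycolysis, 8 of 9 had positive values in KO and 6 had an unadjusted p under 0.05, a limit that 6.99% of all genes passed upward and that is the background for each group below. Pfkp is the platelet form of phosphofructokinase, the committed step of the pathway (chromosome 13, 6579014 to 6648023). It had 126, 240.3 and 129 CPM in WT and 340 and 473 CPM in KO, with no overlap between the groups (log2 fold change 1.19, SE 0.16, adjusted p = 0.0534 from edgeR). The related Pfkm, the muscle form, did not follow, with 45.1, 36.9 and 47.2 CPM in WT and 44.4 and 34.6 CPM in KO (log2 fold change -0.06). Tpi1, triose-phosphate isomerase (chromosome 6, 124760604 to 124764314), had 93.5, 111 and 91.6 CPM in WT and 159.9 and 167 CPM in KO, and the 2 groups were well apart. Its log2 fold change was 0.68 (SE 0.11, adjusted p = 0.0626 from edgeR). The liver form Pfkl and the aldolases Aldoa and Aldoc had log2 fold changes of 0.71, 0.46 and 1.18.

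Lower glycolysis gave smaller values, with 2 of 7 genes at an unadjusted p under 0.05. Pgk1, phosphoglycerate kinase, had 267.6, 329 and 285.1 CPM in WT and 463 and 468.5 CPM in KO (edgeR, log2 fold change 0.66, adjusted p = 0.0842). For Ldha the log2 fold change was 0.30, and for the enolase Eno1, for Eno1b and for Pgam1 it was between 0.12 and 0.17. Gapdh was at -0.13 and Eno3, the muscle enolase, at -0.42, the lowest value of the set. Repeated windows make up 69.0% of Pgk1, 91.6% of Pgam1 and 50.5% of Gapdh, so these levels are uncertain.

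Among transporters Slc16a3, which carries lactate out of the cell (chromosome 11, 120809794 to 120822182), had 14.6, 24.8 and 10.6 CPM in WT and 38.8 and 47.3 CPM in KO. Its log2 fold change was 1.17 (SE 0.17, adjusted p = 0.0536 from edgeR), and none of its exon windows is repeated. The glucose transporter Slc2a1 had a log2 fold change of 0.55 and the high-affinity Slc2a3 one of 0.26. The Egln hydroxylases are both sensors and targets of the pathway, and of the 5 oxygen-dependent enzymes 3 were at an unadjusted p under 0.05. These were Egln3 (log2 fold change 0.98), Egln1 (0.54) and the collagen prolyl hydroxylase P4ha1 (0.58), while P4ha2 was at -0.11. Egln3 had 12.7, 18.9 and 9.21 CPM in WT and 19.2 and 46.5 CPM in KO, so that KO a lay just above WT b. Its log2 fold change rested on KO b, with 0.60 within batch a and 1.30 within batch b, and 0.45 without KO b and 1.44 without KO a.

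All 5 of the other hypoxia targets that were tested had an unadjusted p under 0.05 and a positive value. Ddit4, an inhibitor of mTORC1 signalling (chromosome 10, 59412423 to 59414518), had 5.66, 8.22 and 6.64 CPM in WT and 17 and 19.1 CPM in KO, and KO exceeded WT by 1.40 on the log2 scale (SE 0.41, adjusted p = 0.249 from edgeR). The log2 fold change was 1.05 for Ankrd37, 0.69 for Ndrg1, 0.50 for Vegfa, the vascular growth factor, and 0.49 for the Myc antagonist Mxi1. Summed markers of differentiated cells were lower in KO, and also in both add-backs, than in WT. Their sum was 78.8 to 114 CPM in WT, 51.0 to 59.0 in KO and 49.4 to 64.2 in the add-backs, and 7 of 8 tested had negative values, 5 of them at an unadjusted p under 0.05. Of the 9, 0 were at 0 in WT and at most 1 in a KO sample. Their part in the result was not tested.

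**Figure D1:**
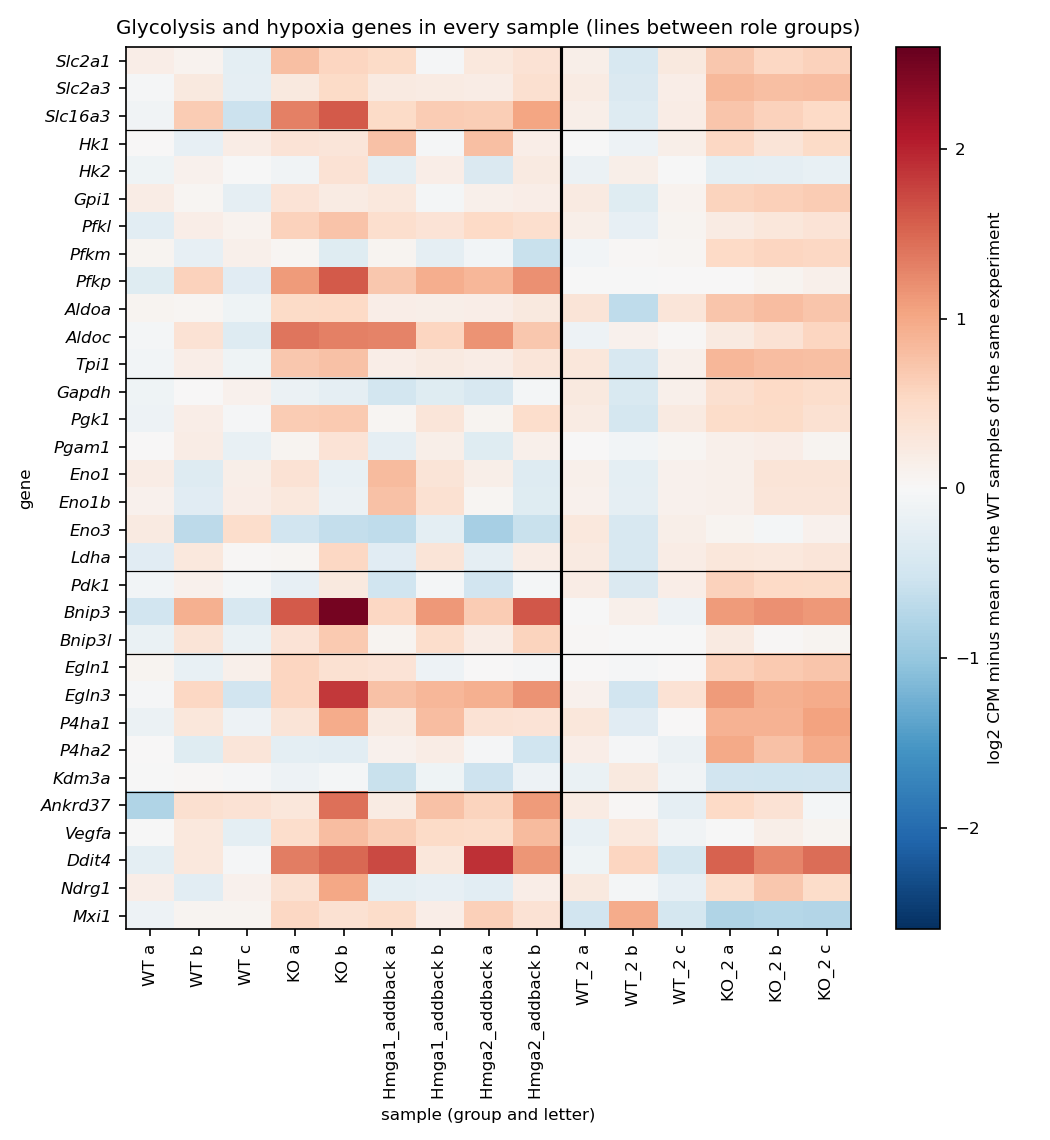
Each row is one of the 32 tested genes and each column a sample, and colour gives log2 CPM minus the mean of the WT samples of the same experiment (red, higher). Horizontal lines separate transporters, upper glycolysis, lower glycolysis with lactate, mitochondria and mitophagy, oxygen-dependent enzymes and other hypoxia targets. KO a, KO b and the 3 KO_2 columns are mostly red, and WT_2 b differs from WT_2 a and c.

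The second experiment asked the same of the full deletion. KO_2 again had the higher values for most of the set, here with 9 genes past the test that spanned transport, upper glycolysis, mitophagy and oxygen sensing. Of the 32 genes, 29 were positive and 3 negative, and the median log2 fold change was 0.45, against 0.04 over all genes. By edgeR at an adjusted p of 0.05, 9 rose and 0 fell, against 4.47% of all genes that rose and 8.25% that changed in either direction. None passed the study's limits (0 of 32, against 0.0687% of all genes). At an unadjusted p under 0.05, 18 were higher (18.4% of all genes) and 2 lower (18.6%). Every KO_2 sample lay above every WT_2 sample for 25 genes (26.7%) and below for 3, Hk2, Kdm3a and Mxi1 (24.6%).

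The calls depended on single samples. Without WT_2 b, 25 of the 32 passed (22 higher, 3 lower), but so did 42.5% of all genes, and the median was 0.37. The log2 fold change of 11 of the 32 then moved by over 1.5 times, and 0 of these 11 were among the 9 that rose. Without WT_2 c, or without any one of the KO_2 samples, 0 passed in edgeR, with 14 to 17 higher at an unadjusted p under 0.05, and of all genes 0.0228% to 0.0305% passed. Scaling by summed counts alone shifted all genes by a median of 0.32, and the set then had a median of 0.71 with 30 positive values. Markers of differentiated cells summed to 48.4 to 74.8 CPM in WT_2, the highest in WT_2 b, and 49.7 to 54.2 CPM in KO_2, and their part was not tested.

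Bnip3 rose again and had the lowest p of the set. Its CPM were 8.21, 9.07 and 7.56 in WT_2 (a, b, c) and 17.7, 18.8 and 18 in KO_2. Each KO_2 sample was far above the WT_2 samples, which here included WT_2 b (log2 fold change 1.14, SE 0.12, adjusted p = 0.0132 from edgeR). Ddit4 rose from 3.09, 4.90 and 2.41 CPM to 9.62, 8.03 and 9.04 CPM, a log2 fold change of 1.37 (SE 0.26, adjusted p = 0.0322 from edgeR). It had the largest log2 fold change of the set in this experiment.

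All 4 oxygen-dependent hydroxylases of the set rose. Egln1, the main HIF hydroxylase (chromosome 8, 127432496 to 127473154), had 16.4, 15.8 and 16.3 CPM in WT_2 and 24.6, 26 and 26.5 CPM in KO_2 (log2 fold change 0.67, SE 0.10, adjusted p = 0.0216 from edgeR). Egln3 (chromosome 12, 55279968 to 55304847) had 8.78, 5.76 and 10.5 CPM in WT_2 and 17.5, 15.4 and 15.9 CPM in KO_2 (log2 fold change 0.95, adjusted p = 0.0413). The groups did not overlap for either gene. P4ha1 and P4ha2 encode the catalytic subunits that hydroxylate proline in collagen (P4ha1 on chromosome 10, 58786044 to 58836052, P4ha2 on chromosome 11, 53913597 to 53945167). P4ha1 went from 20.3, 13.4 and 16.5 CPM to 30.8, 30.8 and 33.9 CPM (log2 fold change 0.93, adjusted p = 0.0285 from edgeR). P4ha2 went from 5.69, 4.90 and 4.53 CPM to 9.98, 8.51 and 9.86 CPM (log2 fold change 0.90, adjusted p = 0.0279 from edgeR). The histone demethylase Kdm3a, also an oxygen-dependent enzyme, went the other way, with 292, 396 and 311 CPM in WT_2 and 231 to 234 CPM in KO_2 (log2 fold change -0.52, adjusted p = 0.0560 from edgeR).

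Slc2a3, a glucose importer (chromosome 6, 122677827 to 122751658), rose from 501, 331 and 488 CPM in WT_2 to 776, 747 and 754 CPM in KO_2 (log2 fold change 0.79, SE 0.17, adjusted p = 0.0413 from edgeR). Slc2a1 and Slc16a3 had log2 fold changes of 0.59 and 0.60 and unadjusted p under 0.05. Tpi1 rose from 68.1, 41.7 and 60.6 CPM to 100.6, 96.6 and 96.0 CPM (log2 fold change 0.78, adjusted p = 0.0419 from edgeR). For both Slc2a3 and Tpi1, WT_2 b was the lowest sample. Pfkm (chromosome 15, 97923020 to 97962878) rose from 30.8, 33.3 and 33.4 CPM to 46.5, 47.9 and 47.2 CPM, and here WT_2 b sat between its fellows (log2 fold change 0.54, SE 0.09, adjusted p = 0.0278 from edgeR). Pfkp, in contrast, had 288, 286 and 291 CPM in WT_2 and 291, 304 and 317 CPM in KO_2 (log2 fold change 0.08, SE 0.10).

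In the rest of the set, Gpi1, Hk1, Aldoa, Pdk1, Gapdh, Aldoc and Ndrg1 had log2 fold changes of 0.39 to 0.68 and unadjusted p under 0.05. Aldoa had 724.6, 364 and 705.5 CPM in WT_2 and 936 to 998 CPM in KO_2, and its log2 fold change was 0.68 with WT_2 b and 0.42 without it. For Gapdh the value was 0.44 with it and 0.27 without it. Pdk1 is a kinase that inhibits pyruvate dehydrogenase, which acts on pyruvate inside the mitochondria. Mxi1 had 80.7, 225 and 83.2 CPM in WT_2 and 67.1, 68.6 and 67.6 CPM in KO_2. Its log2 fold change was -0.93 with WT_2 b and -0.27 without it, where it passed the test (adjusted p = 0.00116 from edgeR). WT_2 b alone thus set the size of this value. For the hexokinase Hk2 the values were 378, 470.2 and 420.3 CPM in WT_2 and 355, 357 and 367 CPM in KO_2, a log2 fold change of -0.23 that became -0.15 without WT_2 b and 0.06 when samples were scaled by summed counts alone.

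**Figure D2:**
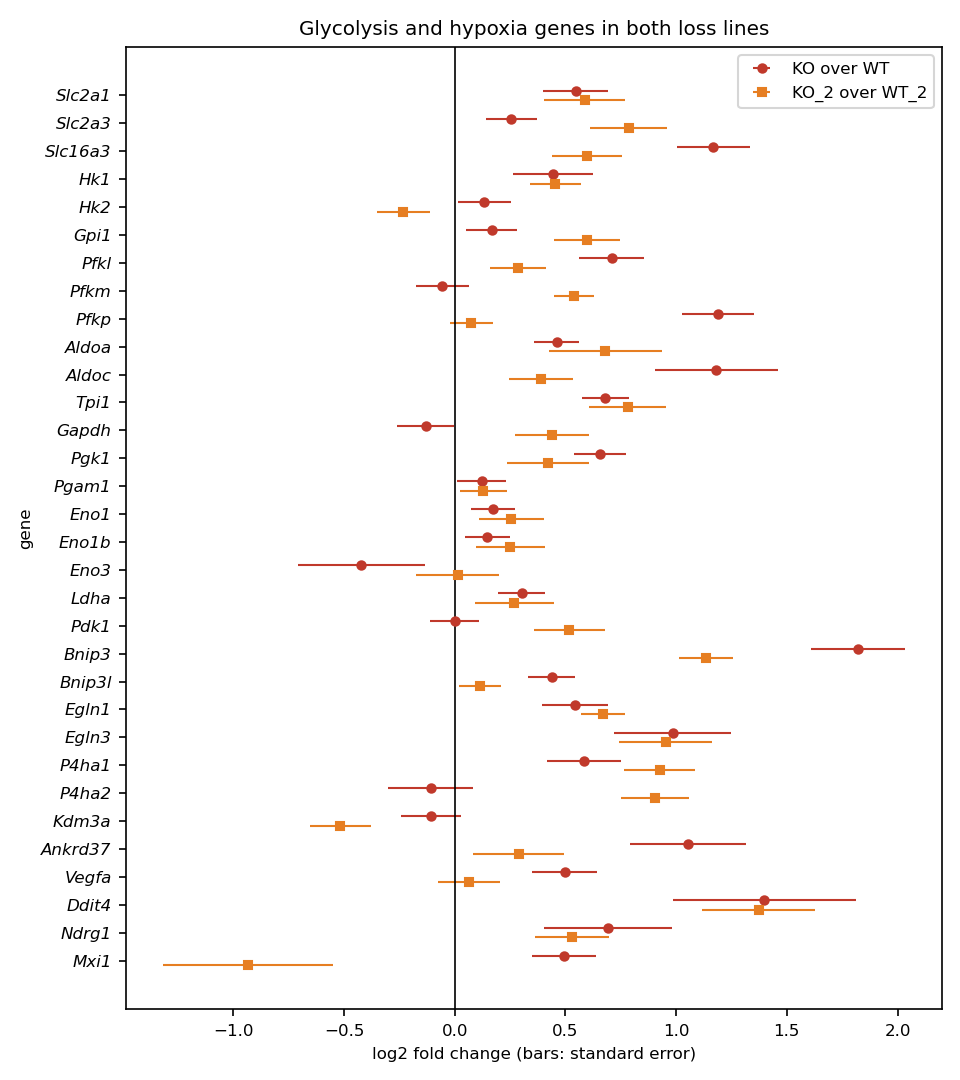
Log2 fold change on the horizontal axis for each of the 32 tested genes, with KO over WT as circles, KO_2 over WT_2 as squares and bars of 1 SE. Bnip3, Ddit4 and Egln3 lie far to the right in both, and Pfkp and P4ha2 in one line each.

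No sample is shared between the 2 loss experiments. Of the 32 genes, 24 were positive in both, where 29.5% of all genes tested in both were. At an unadjusted p under 0.05, 12 were higher in both, against 2.28% of all genes. The difference between the loss effects was then tested in 1 joint fit. By edgeR 1 gene differed at an adjusted p of 0.05 (0.307% of all genes) and 0 passed the study's limits (0.0951%). At an unadjusted p under 0.05 the effect was larger in KO_2 for 5 genes (8.52%) and smaller for 7 (9.85%). The gene that passed was Pfkp, whose log2 effect was lower in KO_2 (-1.13, SE 0.20, adjusted p = 0.0352 from edgeR). This call was lost in 14 of 22 alternatives, among them summed counts alone (-0.84, adjusted p = 0.205). Without WT_2 b, 6 genes passed, where 4.87% of all genes did, and without any other single sample but WT b or WT c 0 did. P4ha2 (1.0, adjusted p = 0.123) and Pfkm (0.58, adjusted p = 0.147) had the next lowest p, with a larger effect in KO_2. The difference was -0.70 for Bnip3 (SE 0.24, adjusted p = 0.227 from edgeR) and -1.45 for Mxi1 (SE 0.51), whose KO and KO_2 values had opposite signs.

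**Figure D3:**
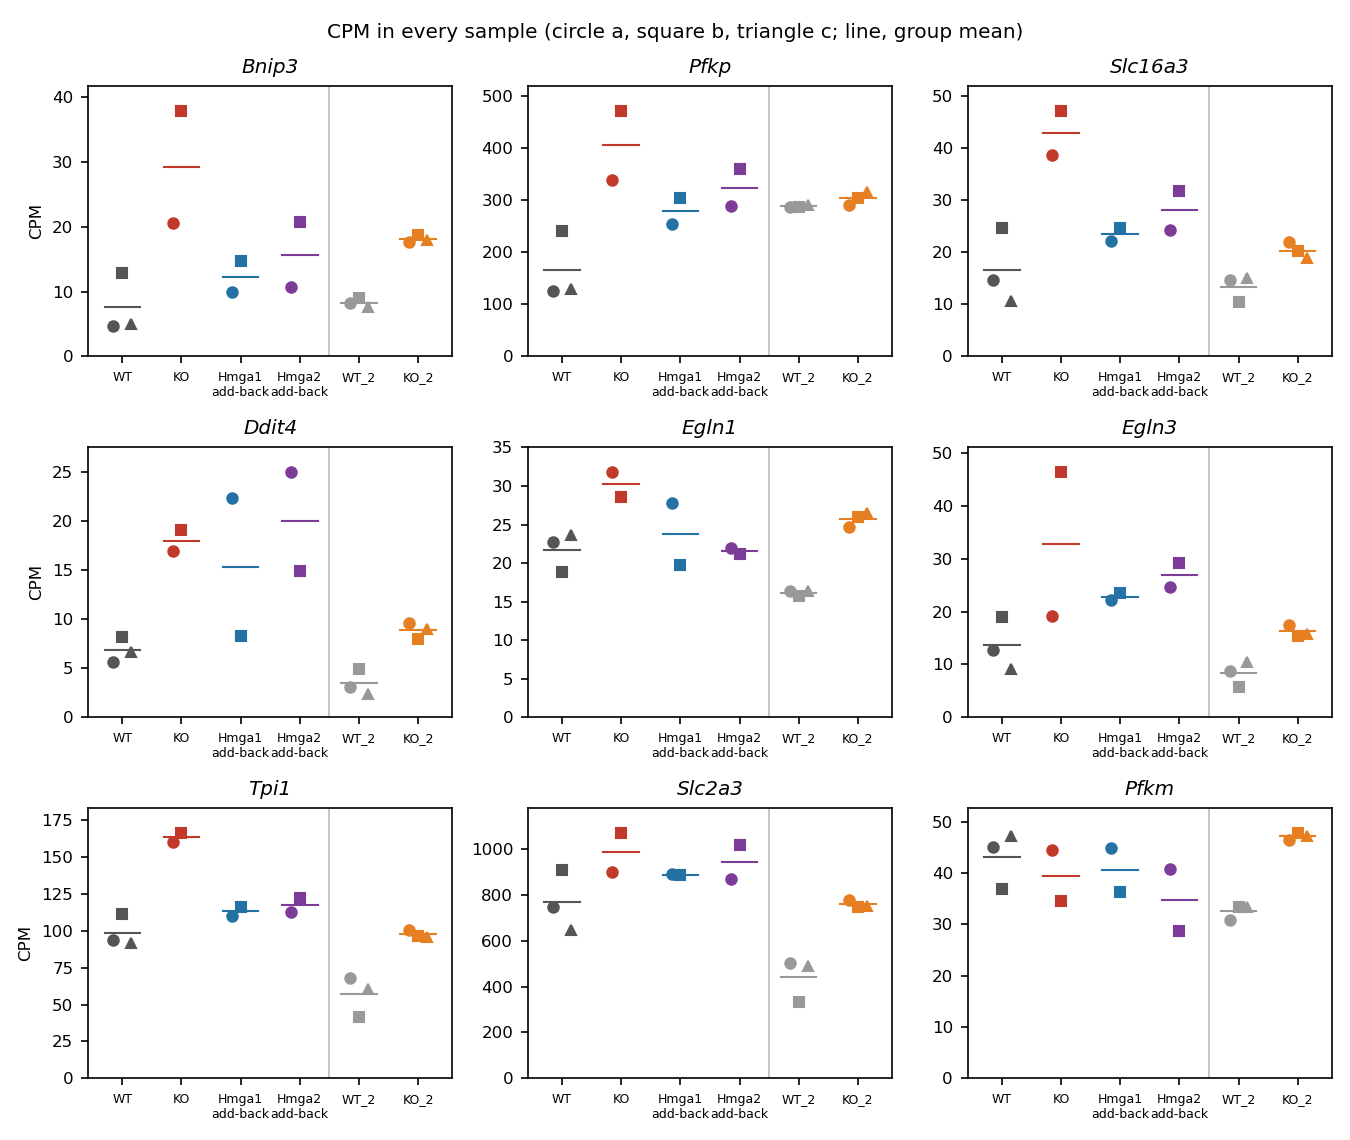
CPM on linear axes from 0 for 9 genes in every sample of the 6 groups, with the batch or replicate letter as the symbol and the group mean as a line. KO and KO_2 lie above their WT for Bnip3, Ddit4, Egln1, Egln3 and Tpi1. The add-back means lie between those of WT and KO for Bnip3 and Slc16a3, while some single add-back samples lie within the WT range for both.

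The add-backs ask whether returning Hmga1, or Hmga2 in its place, changes these genes in the KO line. Both comparisons use the same 2 KO samples as KO against WT, so a value of the other sign is partly built in. No gene of the set passed an adjusted p of 0.05 in edgeR, for Hmga1 (0 of 32, against 0% of all genes, also by the study's limits) or for Hmga2 (0 of 32, against 0.0144%, and 0.00719% by the study's limits). DESeq2 called 3 genes for Hmga1, 1 higher and 2 lower (0.0863% of all genes), and 0 for Hmga2 (0.137%), and limma called 0 for both (0% and 0.0359%). In the Hmga1 add-back, 26 genes were negative and 6 positive, with a median of -0.26. At an unadjusted p under 0.05, 13 were lower (1.54% of all genes) and 2 higher (1.27%). Both samples were below both KO samples for 13 genes (6.84%) and above for 2 (8.0%), and 23 were lower within both batches (21.9%). In the Hmga2 add-back, 27 were negative and 5 positive, with a median of -0.20. At an unadjusted p under 0.05, 11 were lower (2.47%) and 0 higher. Both samples were below both KO samples for 10 genes (9.87%) and above for 0 (10.5%), and 22 were lower within both batches (27.0%).

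Bnip3 had 9.85 and 14.8 CPM in the Hmga1 add-back and 10.6 and 20.7 CPM in the Hmga2 add-back, in batches a and b, where KO had 20.5 and 37.9 CPM. In each batch both add-backs lay between WT and KO. The log2 fold change against KO was -1.19 (SE 0.21) for Hmga1 and -0.91 (SE 0.20) for Hmga2. Slc16a3 had 22.1 and 24.7 CPM in the Hmga1 add-back and 24.3 and 31.9 CPM in the Hmga2 add-back, below both KO samples in each case. Its log2 fold changes were -0.87 and -0.62. Tpi1 had 110.2 and 116 CPM with Hmga1 and 113 and 123 CPM with Hmga2, close to the highest WT sample (log2 fold changes -0.53 and -0.47). For Pgk1 they were -0.50 and -0.41. Pfkp had 255 and 305 CPM and 288 and 361 CPM, above all WT samples in both add-backs.

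Other genes kept no such order. Ddit4 had 22.3 and 8.32 CPM in the Hmga1 add-back and 25.1 and 14.9 CPM in the Hmga2 add-back, above KO in batch a and below it in batch b. Egln3 behaved likewise, with 22.1 and 23.5 CPM and then 24.7 and 29.2 CPM against 19.2 and 46.5 CPM in KO. The 2 genes higher in the Hmga1 add-back were the enolases Eno1, with 648 and 458 CPM against 476 and 320 CPM in KO (log2 fold change 0.48), and Eno1b (0.52). These are near copies, and 56.2% of the exon windows of Eno1b also occur in Eno1, so they are not separate observations.

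**Figure D4:**
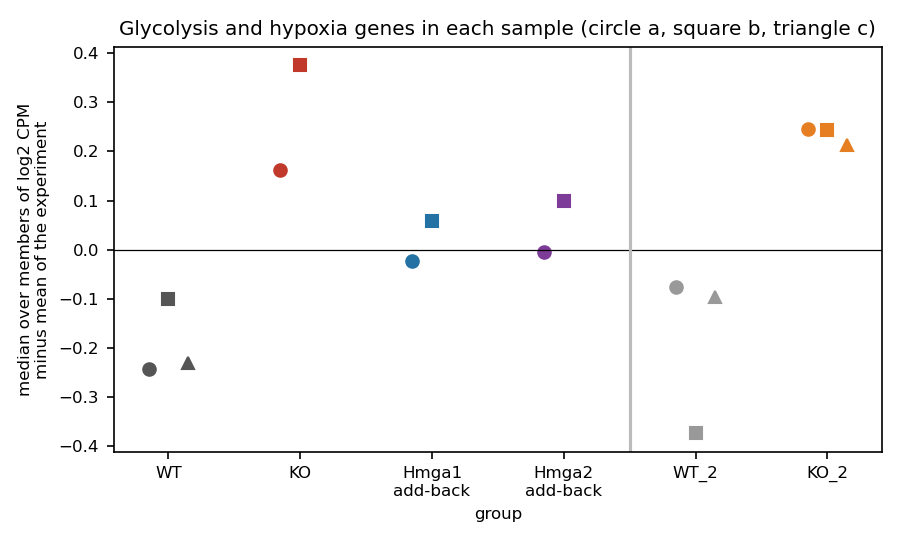
Each point is a sample, and the vertical axis is the median over the 32 tested genes of log2 CPM minus the mean of all samples of that experiment. WT lies at -0.24 to -0.10, KO at 0.16 and 0.38, the add-backs at -0.02 to 0.10, WT_2 at -0.37 to -0.08 and KO_2 at 0.21 to 0.25.

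In the first experiment single genes of the set also differed between batches, while the share called was not far from that of all genes (14 of 32, against 35.6%). Batches a and b hold all 4 genotypes. They were prepared and sequenced apart, and may have been cultured apart, so these steps cannot be told apart. By edgeR, 10 genes were higher in batch b at an adjusted p of 0.05 (18.6% of all genes) and 4 lower (17.1%), and 0 passed the study's limits (2.34%). The median was 0.16, against -0.03 over all genes. When samples were scaled by summed counts alone, the split was 7 higher and 7 lower. In all 4 genotypes batch b was higher for 13 genes (25.7%) and lower for 5 (25.9%).

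Bnip3 was higher in batch b in each genotype (log2 difference 0.96, SE 0.15, adjusted p = 0.00309 from edgeR), with the CPM given above. Its relative Bnip3l had 57.3 and 81.9 CPM in WT a and b, 82.7 and 104 CPM in KO, 67.9 and 89.2 CPM in the Hmga1 add-back and 74.4 and 96.4 CPM in the Hmga2 add-back (log2 difference 0.40, adjusted p = 0.00580 from edgeR). Ldha had 581 and 865 CPM in WT, 738 and 1038 CPM in KO, 586 and 902 CPM in the Hmga1 add-back and 606 and 820.1 CPM in the Hmga2 add-back. The log2 difference was 0.53 (SE 0.08, adjusted p = 0.00240 from edgeR), larger than its KO effect of 0.30. Hk2 had 464 and 542 CPM in WT, 467 and 651 CPM in KO, 418 and 562 CPM in the Hmga1 add-back and 387 and 592 CPM in the Hmga2 add-back (log2 difference 0.44, adjusted p = 0.00680 from edgeR). All of these enzymes and receptors were higher in batch b in every genotype.

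The enolases went the other way. Eno1 had 415 and 289 CPM in WT and 476 and 320 CPM in KO, 648 and 458 CPM in the Hmga1 add-back and 406 and 290.3 CPM in the Hmga2 add-back (log2 difference -0.52, adjusted p = 0.00209 from edgeR). Eno1b followed with 826 and 622 CPM in WT, 916 and 686 CPM in KO, 1289 and 999 CPM in the Hmga1 add-back and 794 and 612 CPM in the Hmga2 add-back (log2 difference -0.39, adjusted p = 0.00534 from edgeR). The WT c sample, alone in its batch, had 406 CPM of Eno1 and 731 CPM of Ldha, between WT a and WT b in both cases.

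**Figure D5:**
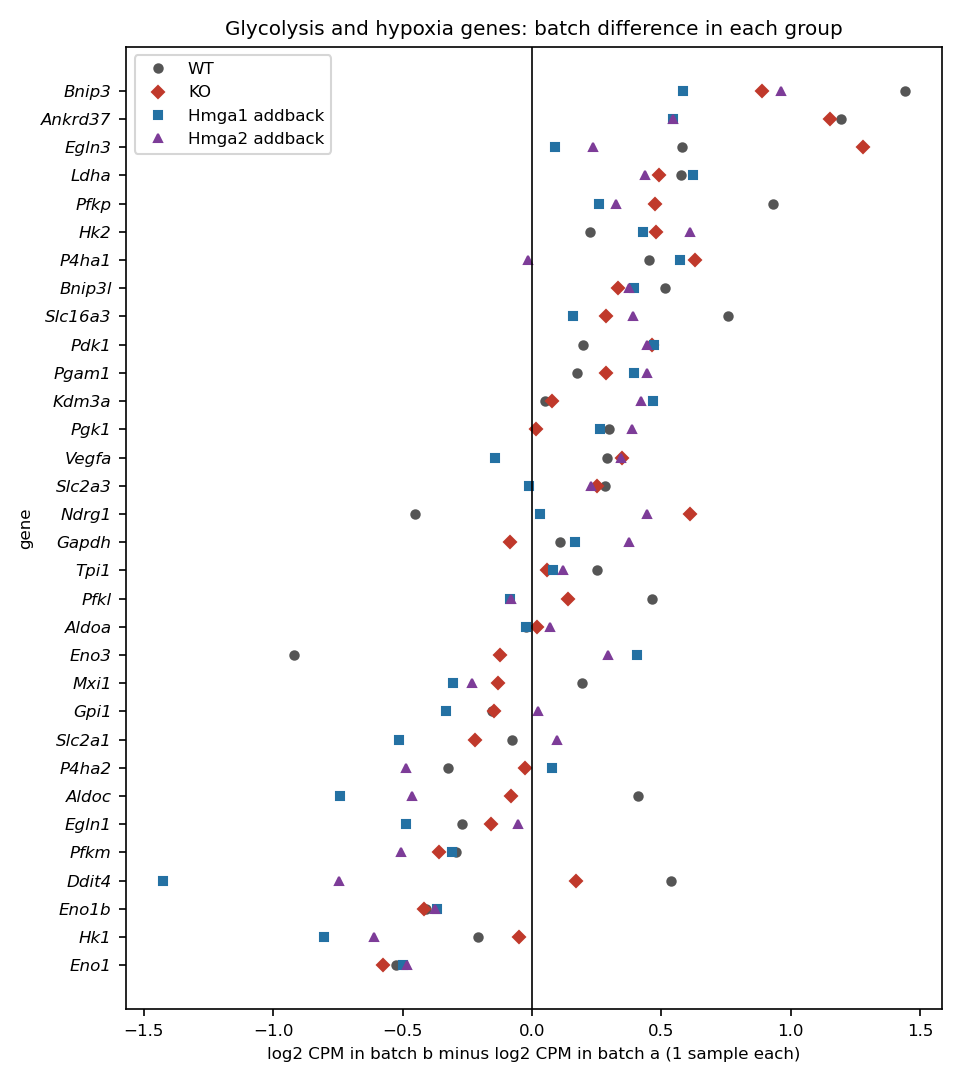
Log2 CPM in batch b minus batch a, 1 sample each, for the 32 tested genes in the 4 genotypes of the first experiment. Bnip3, Ldha and Hk2 lie right of 0 and Eno1 and Eno1b left of 0 in all 4, while Ddit4 lies on both sides.

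Further genes of the pathway were counted from fixed lists. In KO against WT, 6.99% of all genes were higher and 5.56% lower at an unadjusted p under 0.05, and 0.0647% passed the adjusted limit. Of 8 regulators of HIF, 0 passed in KO against WT in edgeR (1 lower at an unadjusted p under 0.05), and in KO_2 1 fell, Epas1, which encodes an alpha subunit of HIF (log2 fold change -0.91, adjusted p = 0.0250 from edgeR). Of 24 tested targets of HIF outside the set, 20 had positive values in KO and 0 passed in edgeR, with 9 higher and 1 lower at an unadjusted p under 0.05. In KO_2, 13 of the 24 were positive, 4 rose and 1 fell. Those that rose were Bhlhe40, a transcriptional repressor (1.27), the lysyl oxidase Loxl2 (0.98), the lipoprotein receptor Vldlr (0.73) and the oxidoreductase Ero1l (0.69), and the transferrin receptor Tfrc fell (-0.79). Of 17 tested glycolytic genes outside the set, 12 were positive in KO with 0 past the test in edgeR and 5 higher at an unadjusted p under 0.05, and in KO_2 5 rose and 1 fell. The lactate dehydrogenase subunit Ldhb (1.49), the neuronal enolase Eno2 (1.31), the transporter Slc2a4 (1.07), Pfkfb3, which makes an activator of phosphofructokinase (0.62), and the phosphoglucomutase Pgm1 (0.44) rose, and the testis form Ldhc fell (-1.44). In KO, Ldhc had a value of the opposite sign, a log2 fold change of 4.51 (SE 0.72, adjusted p = 0.0663 from edgeR). Of 12 genes of pyruvate entry into mitochondria or of its turnover there by pyruvate dehydrogenase, 0 passed in KO in edgeR. Of these, 0 had an unadjusted p under 0.05. In KO_2 Pdk2, a relative of Pdk1, rose (1.04, adjusted p = 0.0356 from edgeR), while another, Pdk3, had a negative value (-1.01, adjusted p = 0.0517 from edgeR). At an unadjusted p under 0.05, 2 of the 12 were higher in KO_2 (18.4% of all genes) and 3 lower (18.6%). The share of these lists called in KO_2 is to be read against the 8.25% of all genes. Without WT_2 c or any one KO_2 sample, only 3 or 4 of all genes passed in edgeR, so most of these calls were then lost.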

How the data were processed

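Strand-specific libraries were made from rRNA-depleted RNA of 15 ESC samples. As the methods and the submitters' processing notes give it, the authors trimmed 3 bases from 50-base single-end reads, aligned them with Bowtie through QuasR to mm9 (NCBIM37), kept 1 random hit of a multi-mapping read and counted same-strand reads on UCSC known genes. The tables deposited hold unnormalised counts and the exonic length of each gene.

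The 2 experiments were fitted apart. Genes whose counts averaged 10 or more (13912 and 13098) were scaled by TMM and tested with edgeR 4.0.16 in R 4.3.3 (quasi-likelihood, Benjamini-Hochberg over all genes), with batch in the first experiment, as the study did, and no batch in the second. The difference of both losses came from a joint fit of 13671 genes. The batch difference between a and b had a correlation across genes of 0.360 to 0.807 between genotypes, and the study's batches pair the letters there. p-values measure the spread between samples of 1 line, which may not all be separate cultures. CPM were also divided by exonic length (RPKM). Alternatives were DESeq2 size factors, summed counts, no filter, an average of 50 or more, DESeq2 1.42.0, limma-trend 3.58.1 (prior count of 2), the batch term switched, only the groups compared, and each sample left out. The scripts were tested on simulated data. Replicates were checked and no pair was identical. The chi-square per degree of freedom between samples of a group was 45.9 to 95.3 in the first experiment. In the second it was 3.88 to 6.45 in KO_2, 5.53 for WT_2 a and c, and 125 and 131 for pairs with WT_2 b.

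The genes and lists were chosen with earlier results of these data known. Values in every sample are given for genes past an adjusted p of 0.05, for the 3 largest changes in each loss and for the 6 lowest p between batches. Mxi1, Kdm3a, Slc16a3 and Pgk1 were added after their values were seen. Aldoa, given for the second experiment, is also outside this rule. Exon windows of 47 bases were matched to the NCBIM37 genome. Promoters came from RefSeq.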

Additional observations from a re-analysis of the deposited data

Results flagged for a closer look

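1 gene differed between the 2 losses of Hmga1 by the test of the difference itself. The effect on Pfkp, the platelet phosphofructokinase, was -1.13 on the log2 scale in KO_2 relative to KO (edgeR, joint fit, adjusted p = 0.0352). All KO samples lay above all WT samples, while 1 KO_2 sample, with 290.9 CPM, lay within the WT_2 range. The WT level also differed, at 126 to 240.3 CPM in WT and 286 to 291 CPM in WT_2, and the experiments were normalised apart except in the joint fit. The adjusted p was between 0.0518 and 0.270 when WT a, either KO sample, any add-back sample, WT_2 a, WT_2 c or any KO_2 sample was left out.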

How the results depend on the processing

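Counts below are genes of the set at an adjusted p of 0.05, with the share of all genes in parentheses. In KO against WT, 5 passed with no filter (0.445%), 10 by DESeq2 (1.43%), 4 with only the groups compared (0.490%) and 0 without the replicate block (0.165%), and 0 to 10 when single samples were left out (10 without WT b, 5.25%). For the Hmga1 add-back 3 passed by DESeq2 (0.0863%) and 2 with only the groups compared (0.115%). In KO_2 against WT_2, 15 passed by DESeq2 (24.7%), 5 with a replicate block (3.02%) and 0 to 25 without single samples (0.0228% to 42.5%), and summed counts gave a median of 0.71. Letters do not pair these samples (correlation of deviations 0.0839, 0.0944 and -0.0556 for a, b and c). Between batches 8 to 15 passed without single samples (8 without KO a, 19.0%, and 9 without KO b, 19.4%), and summed counts gave a median of 0.0314. For the difference of both losses 3 passed by DESeq2 (2.41%), 0 by summed counts (0.190%), 0 without the replicate block (0.256%) and 0 to 6 without single samples (6 without WT_2 b, 4.87%). Where single samples were left out of a group of 2, the lone sample was assumed to vary like the others. The cause of these changes was not tested.

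Of the 32 genes, the log2 fold change turned its sign under some alternative for 6 in KO against WT and 3 in KO_2 against WT_2. Without single samples in KO against WT, Eno3 ranged from -0.878 to 0.241 and Pdk1 from -0.130 to 0.143 (both positive without WT a), Kdm3a from -0.236 to 0.0437 (positive without WT a, and 0.0047 without KO b), P4ha2 from -0.209 to 0.0137 (positive without KO a), Gapdh from -0.286 to 0.0104 (positive without KO b) and Hk2 from -0.0049 to 0.285 (negative without WT b). Pdk1, at -0.00067 with all samples, was also at 0.0108 by summed counts, 0.0103 with no filter, 0.0085 with a mean count of at least 50, 0.0029 by limma, 0.0414 without the replicate block and 0.0044 with only the groups compared. In KO_2, Hk2 was at 0.065 by summed counts and Eno3 at -0.0199 with DESeq2 size factors and -0.0196 by DESeq2, and without single samples Eno3 ranged from -0.168 to 0.136 and Vegfa from -0.037 to 0.219. With 2 or 3 samples of 1 line per group, differences of single lines and of genotype cannot be told apart, and Car9 and Adm had too few reads to test.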
